A study of Homo sapiens with 24 samples.

Results

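The 10 genes described here encode the endosomal machinery that makes and releases extracellular vesicles and the tetraspanins that such vesicles carry: CD63, CD81, CD9, CD82, TSPAN8, PDCD6IP, TSG101, SDCBP, RAB27A and RAB27B. They were taken by symbol from the 48162 genes of the deposited expression tables, and all 10 were present. RNA-seq was run on 24 libraries, 3 for each of 8 groups, and the comparison asks whether cells given vesicles from pancreas cancer cells change the RNA of their own vesicle machinery. The recipients were hTERT-HPNE (HPNE), duct-derived pancreas cells immortalised with telomerase, and HPDE-H6c7 (HPDE), pancreas duct epithelial cells immortalised with papillomavirus oncogenes. Each was 1 established line, so a difference between them is a difference between those lines. Both lines were grown in keratinocyte serum-free medium and treated for 24 h. The untreated groups received fresh serum-free medium. The residual medium groups received residual medium from the vesicle preparation, the negative control. The vesicle (EV) groups received 1e10 vesicles per well, either from PANC-1, a pancreatic ductal adenocarcinoma line, or from PPCL-68, which the series describes as pancreas cancer cells. The series calls the 3 samples of a group biological triplicates but names no separate days or passages, so p-values measure the spread between these samples, which may be partly technical.

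Exosomes form when the membrane of a late endosome buds inward into a multivesicular body, and they leave the cell when that body fuses with the plasma membrane. ESCRT complexes, to which TSG101 belongs, sort cargo and cut the budding neck with the help of ALIX (the product of PDCD6IP), which syntenin (the product of SDCBP) links to syndecans. RAB27A and RAB27B are small GTPases that dock multivesicular bodies at the plasma membrane, and tetraspanins such as CD63, CD81 and CD9 organise membrane domains of the vesicles and serve as their usual protein markers.

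The promoters of 4 members are printed as examples of the start regions of these functionally linked genes. RefSeq (GRCh38.p14) windows of 300 bases, from 250 before to 50 after a transcription start, were found for 8 of the 10 members, with 24 listed starts in all. CD81 and SDCBP had none. Capitals mark CACGTG, the E-box form that the lysosomal regulators TFEB and TFE3 recognise. The windows were the first listed for CD63 (chr12:55728960-55729259, minus strand), PDCD6IP (chr3:33798380-33798679, plus strand), RAB27A (chr15:55319074-55319373, minus strand) and RAB27B (chr18:54717607-54717906, plus strand).
CD63: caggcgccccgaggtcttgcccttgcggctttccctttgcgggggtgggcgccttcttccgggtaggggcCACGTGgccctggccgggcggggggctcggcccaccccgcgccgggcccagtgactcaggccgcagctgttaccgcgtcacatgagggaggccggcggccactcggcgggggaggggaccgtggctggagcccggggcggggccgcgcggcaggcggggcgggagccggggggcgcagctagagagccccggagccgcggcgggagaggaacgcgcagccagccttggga
PDCD6IP: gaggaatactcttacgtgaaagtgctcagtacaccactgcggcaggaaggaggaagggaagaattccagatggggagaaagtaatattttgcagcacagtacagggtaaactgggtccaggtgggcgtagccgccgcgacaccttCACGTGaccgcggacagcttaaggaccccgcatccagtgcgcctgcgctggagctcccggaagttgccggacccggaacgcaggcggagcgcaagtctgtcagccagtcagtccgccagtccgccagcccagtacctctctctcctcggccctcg
RAB27A: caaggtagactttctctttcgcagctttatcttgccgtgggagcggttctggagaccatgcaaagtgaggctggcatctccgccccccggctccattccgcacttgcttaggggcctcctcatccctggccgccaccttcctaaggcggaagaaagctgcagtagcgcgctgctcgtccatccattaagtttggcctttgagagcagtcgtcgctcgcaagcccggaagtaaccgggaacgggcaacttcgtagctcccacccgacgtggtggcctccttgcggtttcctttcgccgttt
RAB27B: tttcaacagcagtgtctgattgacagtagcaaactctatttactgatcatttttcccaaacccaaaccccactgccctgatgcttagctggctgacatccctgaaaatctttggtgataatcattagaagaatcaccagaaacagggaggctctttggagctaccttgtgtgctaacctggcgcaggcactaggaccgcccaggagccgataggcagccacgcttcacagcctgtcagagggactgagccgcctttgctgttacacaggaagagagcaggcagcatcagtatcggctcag
The motif began 180 bases before the first of 8 listed starts of CD63 and 105 bases before the 1 listed start of PDCD6IP. No other listed CD63 start had it in its window. It was found, on either strand, in 2 of the 24 member windows and in 7.26% of the 35116 RefSeq windows of this length. A search for TGACGT, the core of the cyclic AMP and ATF element, found 2 member windows (TSG101 and RAB27A, at another of its starts) against 7.98% of all windows. TGATGNAA, the amino acid response element of ATF4, was in 0 member windows and in 3.62% of all windows. The CD63 window was 78.3% G and C and held 36 CpG pairs, whereas the RAB27B window was 51% G and C with 6 CpG pairs. The PDCD6IP and RAB27A windows were alike, at 60.7% and 59.3% G and C with 22 and 23 CpG pairs. The medians over all windows were 58.7% and 14 pairs. A match is a description of letters, not a bound site.

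Between 29209142 and 46490312 reads per library were assigned to genes. Apart from TSPAN8, with at most 1 read in a library, even the scarcer members rested on usable counts: RAB27B on 205 to 2813 reads and CD9 in HPNE on 43 to 106. The line labels matched their markers only in part. The 6 duct epithelium markers (EPCAM, CDH1 and 4 keratins) summed to 1431 to 3498 FPKM in HPDE and to 4.56 to 12.8 FPKM in HPNE, whereas 4 mesenchymal markers (FN1, COL1A1, COL1A2 and VIM) and TERT, the immortalising gene, summed to 8627 to 12645 FPKM in HPNE and 80.9 to 153 FPKM in HPDE. FPKM corrects a read number for the length of the gene and the size of the library. Endothelial, leukocyte and acinar or islet markers summed to at most 2.08 FPKM in any library. In HPNE, 1 library of each group lay apart from its other two: untreated replicate 3, residual medium replicate 3, PANC-1 EV replicate 1 and PPCL-68 EV replicate 1. Its mean distance to the others was 2.05 to 3.31 times the distance between those, against 1.08 to 1.24 times in HPDE. COL1A1 in residual medium replicate 3 was 3498 FPKM, against 1896 and 1876 in the other residual medium libraries and 3731 to 4337 in the untreated ones. Leaving out these 4 libraries raised the share of all genes called in HPNE, for example from 24.2% to 58.9% for PANC-1 EVs against residual medium and from 39.9% to 65.5% for PPCL-68 EVs. These libraries were picked as the farthest of their group in the same data, so leaving them out narrows the spread by design. More calls and smaller p-values are favoured by that, so the p-values of this setting are descriptions only. Member calls gained in HPNE by leaving them out are given with each gene. No member call was lost, which is no independent support.

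In untreated cells the members' levels set the lines apart, most of all CD9. CD9 stood at 2.04, 2.18 and 1.77 FPKM in untreated HPNE and at 119, 120.1 and 118 FPKM in untreated HPDE, a log2 difference of 5.33 ± 0.09 (SE). CD63 was the most abundant member in every one of the 24 libraries, at 552 ± 8.28 FPKM (SD, n = 3) in untreated HPNE and 179 ± 7.41 FPKM in untreated HPDE. CD81, SDCBP and RAB27B were also higher in HPNE, by log2 differences (HPDE minus HPNE) of -1.68, -1.68 and -1.57. PDCD6IP (-0.89) and RAB27A (-0.46) followed in the same direction. Of the 9 members tested, 8 differed at an adjusted p under 0.05 (limma, Benjamini-Hochberg over all genes), 2 higher and 6 lower in HPDE. That stood beside 83.8% of all 12377 genes tested, so the number of members called was close to the background. CD82 was the weakest of the 8 (0.53, adjusted p = 0.0149): its groups overlapped, and with median-of-ratios size factors the difference was 0.17 (adjusted p = 0.40). Without untreated HPNE replicate 1 or replicate 2 the call was also lost, with an adjusted p of up to 0.111. TSG101 was at 25.1 ± 1.20 FPKM in HPNE and 25.2 ± 1.62 FPKM in HPDE, a log2 difference of 0.00 that became -0.35 with size factors, which lowered the median of all genes in this comparison by 0.31.

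Ordered by mean FPKM over the 12 libraries of a line, HPNE ran CD63, SDCBP, CD81, CD82, PDCD6IP, TSG101, RAB27A, RAB27B, CD9 and TSPAN8. Only 3 of the 9 neighbouring pairs in that order had ranges that did not overlap: CD63 with SDCBP, TSG101 with RAB27A, and CD9 with TSPAN8. In HPDE the order was CD63, CD9, CD82, SDCBP, CD81, TSG101, PDCD6IP, RAB27A, RAB27B and TSPAN8, and only CD82 with SDCBP and CD81 with TSG101 overlapped. CD63 ranked 45 among the 11503 genes tested in HPNE and 218 among 12223 in HPDE. TSPAN8, a tetraspanin of epithelial tumours, had 0 reads in all 12 HPNE libraries and in 11 of 12 HPDE libraries, with 1 read in HPDE PPCL-68 EV replicate 2. A count of 0 allows up to 3 reads in a library. TSPAN8 was too low to test, so every count of tested members is out of 9.

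**Figure D1:**
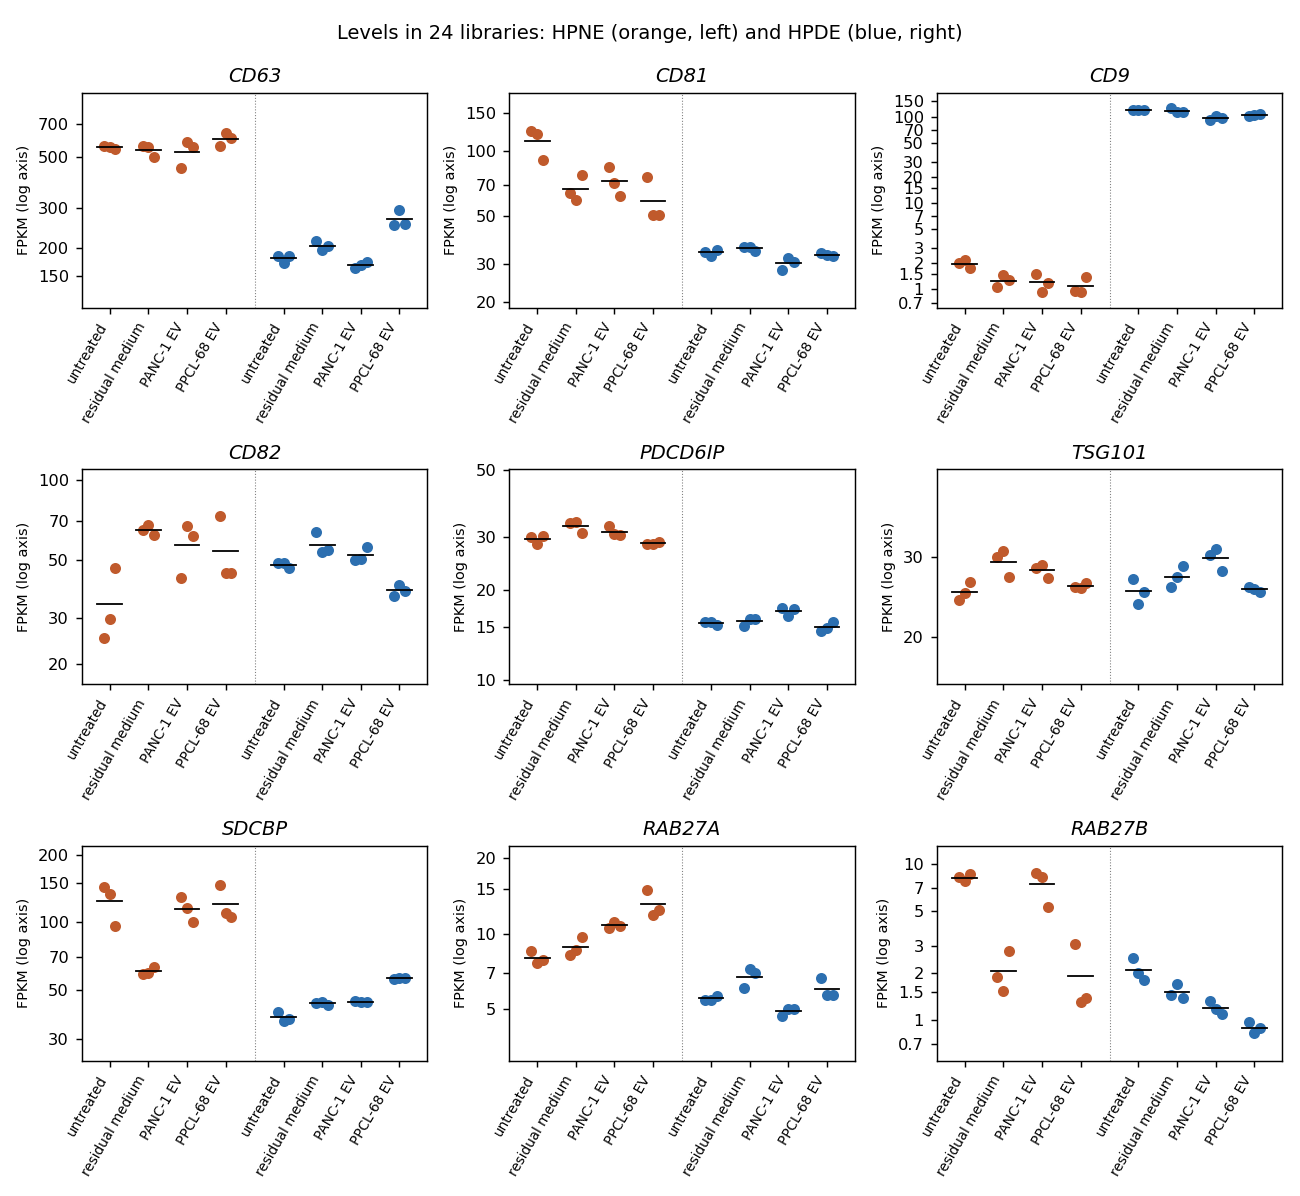
FPKM of the 9 tested members in each of the 24 libraries, on log axes whose range differs between panels. Points are libraries and horizontal bars are group means. SDCBP and RAB27B in HPNE show the low residual medium groups, and CD9 lies near 1 to 2 FPKM in HPNE and near 100 in HPDE.

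Against residual medium, the members that rose in HPNE were SDCBP with both kinds of vesicle, RAB27B with PANC-1 EVs and RAB27A with PPCL-68 EVs. PDCD6IP fell there with PPCL-68 EVs. In HPDE, CD63, CD9, CD81 and RAB27A fell with PANC-1 EVs. With PPCL-68 EVs, CD63 and SDCBP rose there and CD9, CD82 and RAB27B fell. In HPNE, 2 of 9 members were called with PANC-1 EVs, both higher, beside 24.2% of all 11503 genes (13.9% higher), and 3 of 9 with PPCL-68 EVs, 2 higher and 1 lower, beside 39.9% of all genes. In HPDE, 4 of 9 were called with PANC-1 EVs, all lower, beside 63.3% of all 12223 genes (35.1% lower), and 5 of 9 with PPCL-68 EVs, 2 higher and 3 lower, beside 67.7%. As shares these were 22.2%, 33.3%, 44.4% and 55.6%, each below its background in this fit. The one-sided HPDE count with PANC-1 EVs depended on the scaling. With size factors 6 of 9 were called there, 2 higher and 4 lower, beside 62.4% of all genes. The additions were TSG101 and PDCD6IP, and that share was no longer below its background. The same scaling added TSG101 in HPNE with PPCL-68 EVs, beside 42.4% of all genes, where the share was also no longer below its background. Without the 4 HPNE libraries that lay apart, 4 of 9 members were called in HPNE with PANC-1 EVs (3 higher, 1 lower) beside 58.9% of all genes, and 7 of 9 with PPCL-68 EVs (3 higher, 4 lower) beside 65.5%. Size factors also moved the split of all genes called with PANC-1 EVs in HPNE, from 57.4% higher to 42.0% higher. The median log2 difference of the tested members with PANC-1 EVs was -0.03 in HPNE and -0.19 in HPDE, beside 0.02 and -0.04 for all genes. With PPCL-68 EVs it was -0.12 and -0.09, beside 0.00 and -0.03.

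Residual medium itself was not neutral for these genes. In HPNE it was set apart from untreated cells by 6 of 9 members, 2 higher and 4 lower, beside 43.9% of all genes, and in HPDE by 5 of 9, 4 higher and 1 lower, beside 20%. The HPDE count fell to 1 with no filter on low genes, beside 5.06% of all genes. It fell to 2 or 3 without any 1 of 5 of the 6 libraries compared, all except residual medium replicate 2. The vesicle groups were therefore also compared with untreated cells. There 3 of 9 members were called in HPNE with PANC-1 EVs (1 higher, 2 lower) beside 21.1% of all genes, and 5 of 9 with PPCL-68 EVs (2 higher, 3 lower) beside 42.5%. In HPDE, PANC-1 EVs gave 6 of 9 (3 each way) beside 60.6%, and PPCL-68 EVs gave 5 of 9 (2 up, 3 down) beside 66.3%. With size factors the share of called genes that were higher went from 42.6% to 61.5% for residual medium in HPNE, from 45.5% to 58.3% for PANC-1 EVs against untreated HPNE and from 44.0% to 55.2% for PPCL-68 EVs. Comparisons with the same control share its 3 libraries, so agreement between them is not independent. In bulk RNA, fewer cells of a type and less RNA per cell cannot be told apart, and neither can RNA delivered by vesicles and RNA made by the recipient.

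**Figure D2:**
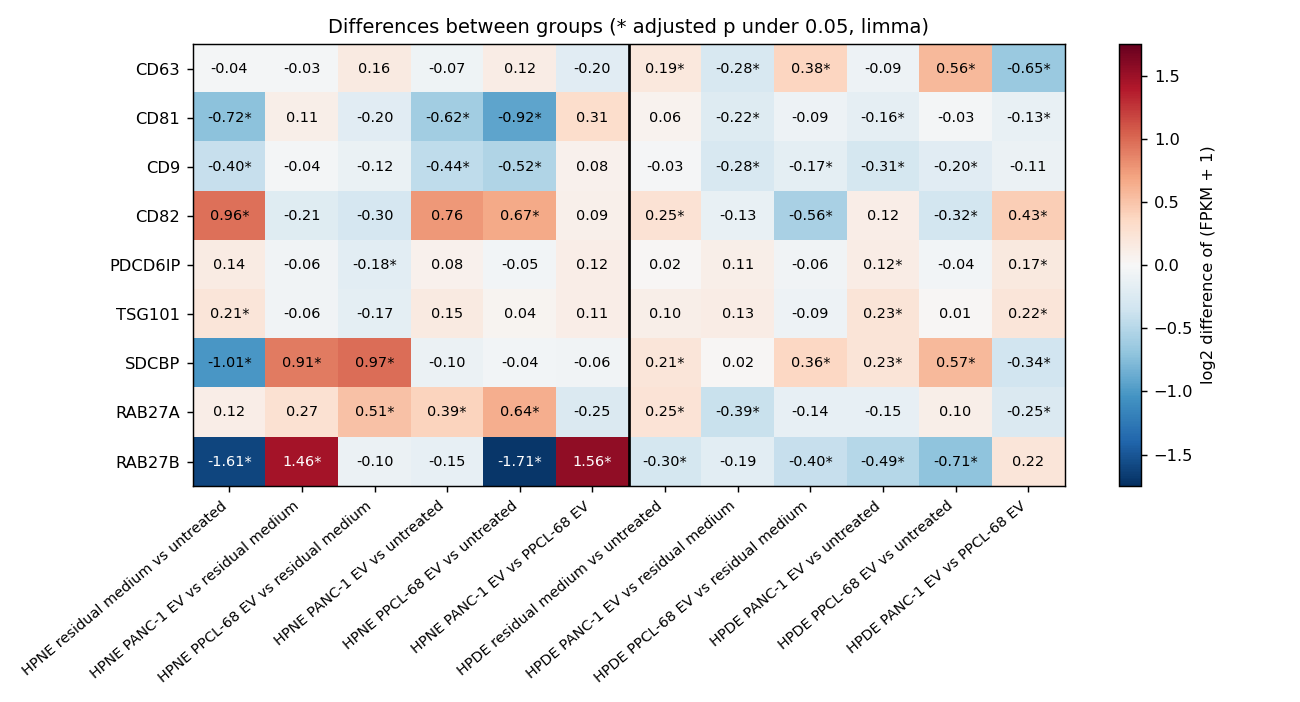
Log2 differences of (FPKM + 1) for the 9 tested members (vertical axis) in the 6 comparisons of each line (horizontal axis), as colour and number. Asterisks mark an adjusted p under 0.05. SDCBP in HPNE reads -1.01 for residual medium against untreated and 0.91 and 0.97 for the vesicles against residual medium.

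SDCBP, whose product syntenin couples ALIX to syndecan cargo, was called in 3 of the 4 comparisons of vesicles with residual medium. In HPNE it stood at 143, 135 and 96.2 FPKM untreated, at 58.9, 59.3 and 62.9 FPKM in residual medium, at 129, 116 and 99.98 FPKM with PANC-1 EVs and at 146, 110.3 and 105 FPKM with PPCL-68 EVs. The residual medium libraries were the 3 lowest, and the next library up was untreated replicate 3 at 96.2 FPKM. SDCBP thus fell in residual medium by 1.01 on the log2 scale (SE 0.16, adjusted p = 0.00113, limma). It was higher with PANC-1 EVs than with residual medium by 0.91 (SE 0.16, adjusted p = 0.00376) and with PPCL-68 EVs by 0.97 (adjusted p = 0.00124). Against untreated cells the vesicle groups differed by only -0.10 and -0.04 (adjusted p = 0.686 and 0.855). Without the 4 HPNE libraries that lay apart, both vesicle groups were below untreated by 0.36 (log2 difference -0.36, adjusted p = 0.00100 and 0.000796) and still above residual medium by 0.85 and 0.86.

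In HPDE, SDCBP showed another order. It was at 39.7, 36.2 and 36.8 FPKM untreated, 43.8, 44.0 and 42.8 FPKM in residual medium, 44.7, 44.0 and 43.8 FPKM with PANC-1 EVs and 56.0, 56.1 and 56.4 FPKM with PPCL-68 EVs. The PPCL-68 EV libraries were the highest and the untreated ones the lowest, with no overlap. SDCBP rose with PPCL-68 EVs by 0.36 over residual medium (SE 0.04, adjusted p = 1.91e-06) and by 0.57 over untreated cells (adjusted p = 1.52e-08). With PANC-1 EVs it was 0.02 above residual medium (adjusted p = 0.665). Residual medium alone raised it by 0.21 over untreated cells, the opposite direction to HPNE. Of the variance of SDCBP among the 12 HPDE libraries, 97.8% lay between groups, beside a median of 85.2% over all genes.

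RAB27B, a docking GTPase of multivesicular bodies, had the widest range of the members in both lines. In HPNE it was at 8.22, 7.77 and 8.64 FPKM untreated, 1.87, 1.54 and 2.78 FPKM in residual medium, 8.73, 8.31 and 5.29 FPKM with PANC-1 EVs and 3.08, 1.31 and 1.39 FPKM with PPCL-68 EVs. The libraries fell into a high pair of groups, untreated and PANC-1 EV, and a low pair, residual medium and PPCL-68 EV, which did not overlap. RAB27B fell by 1.61 in residual medium (SE 0.23, adjusted p = 0.000607, limma) and was 1.46 higher with PANC-1 EVs than with residual medium (adjusted p = 0.00208). With PPCL-68 EVs it differed from residual medium by -0.10 (adjusted p = 0.761) and stayed 1.71 below untreated cells (log2 difference -1.71, adjusted p = 0.000251). The direct comparison of the vesicles gave 1.56 higher with PANC-1 than with PPCL-68 EVs (adjusted p = 0.00528, or 0.0116 when replicate number was a block). RAB27B was the 1 member of 9 called between the vesicles in HPNE, beside 5.47% of all genes. Without the 4 libraries that lay apart, CD81 and CD82 were called there too, beside 36.4% of all genes.

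In HPDE, RAB27B was lower throughout, at 2.49, 2.00 and 1.81 FPKM untreated, 1.44, 1.70 and 1.38 FPKM in residual medium, 1.33, 1.17 and 1.09 FPKM with PANC-1 EVs and 0.96, 0.82 and 0.89 FPKM with PPCL-68 EVs. Each group lay wholly below the one named before it. RAB27B fell by 0.49 with PANC-1 EVs and by 0.71 with PPCL-68 EVs against untreated cells (adjusted p = 0.000410 and 1.09e-05), and by 0.40 with PPCL-68 EVs against residual medium (adjusted p = 0.00157). The step from residual medium to PANC-1 EVs was -0.19 (adjusted p = 0.0950), and -0.33 (adjusted p = 0.0310) in a voom fit on recovered reads. Between the vesicles RAB27B was 0.22 higher with PANC-1 EVs (adjusted p = 0.0710), which passed with a pseudocount of 0.1 (0.39, adjusted p = 0.0452) and with voom (0.43, adjusted p = 0.0178). The fall of 0.30 in residual medium (adjusted p = 0.0354) was lost without untreated replicate 1 or 2 or residual medium replicate 1 or 3, with an adjusted p of up to 0.159, and with no filter (0.112) or only the 6 libraries compared (0.0551). At these levels the added 1 FPKM shrinks a log2 difference.

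RAB27A, the paralogue of RAB27B, moved differently in HPNE. It was at 8.52, 7.65 and 7.88 FPKM untreated, 8.22, 8.58 and 9.68 FPKM in residual medium, 10.5, 11.1 and 10.7 FPKM with PANC-1 EVs and 14.9, 11.9 and 12.5 FPKM with PPCL-68 EVs. Every vesicle library lay above every library without vesicles, and the PPCL-68 EV libraries lay above the PANC-1 EV ones. Between the vesicle groups, though, 30.3% of all genes did not overlap, and RAB27A was not called there. Its log2 difference of PANC-1 from PPCL-68 EVs was -0.25 (adjusted p = 0.161, limma with a replicate block). Against residual medium, 38.1% of all genes did not overlap with PANC-1 EVs and 48.4% with PPCL-68 EVs. RAB27A rose with PPCL-68 EVs by 0.51 over residual medium (SE 0.09, adjusted p = 0.00171, limma) and by 0.64 over untreated cells (adjusted p = 0.000359). With PANC-1 EVs it rose by 0.39 over untreated cells (adjusted p = 0.0144). That call was lost without untreated replicate 2 or PANC-1 EV replicate 2 or 3, with an adjusted p of up to 0.0649. Over residual medium the PANC-1 EV difference was 0.27 (adjusted p = 0.0577), and without the 4 libraries that lay apart it was 0.34 (adjusted p = 0.00149). Residual medium gave 0.12 over untreated cells (adjusted p = 0.300), and 0.24 (adjusted p = 0.0461) with size factors.

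In HPDE, RAB27A was at 5.46, 5.46 and 5.67 FPKM untreated, 6.10, 7.21 and 6.97 FPKM in residual medium, between 4.70 and 5.02 FPKM in the 3 PANC-1 EV libraries and 6.65, 5.72 and 5.73 FPKM with PPCL-68 EVs. The PANC-1 EV libraries were the lowest. RAB27A fell with PANC-1 EVs by 0.39 against residual medium (SE 0.07, adjusted p = 0.000185) and was 0.25 lower with PANC-1 than with PPCL-68 EVs (log2 difference -0.25, adjusted p = 0.00770). It was -0.15 against untreated cells (adjusted p = 0.0801). Residual medium raised it by 0.25 (adjusted p = 0.0228), a call lost without untreated replicate 1 or 2 or residual medium replicate 2 or 3 (adjusted p of up to 0.0792) and with no filter (0.0630). A pair of neighbours overlaps RAB27A on the genome and the libraries kept no strand: PIGB with up to 334 reads and RP11-139H15.1 with up to 187, against at least 554 reads for RAB27A. Their part in its values was not tested.

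**Figure D3:**
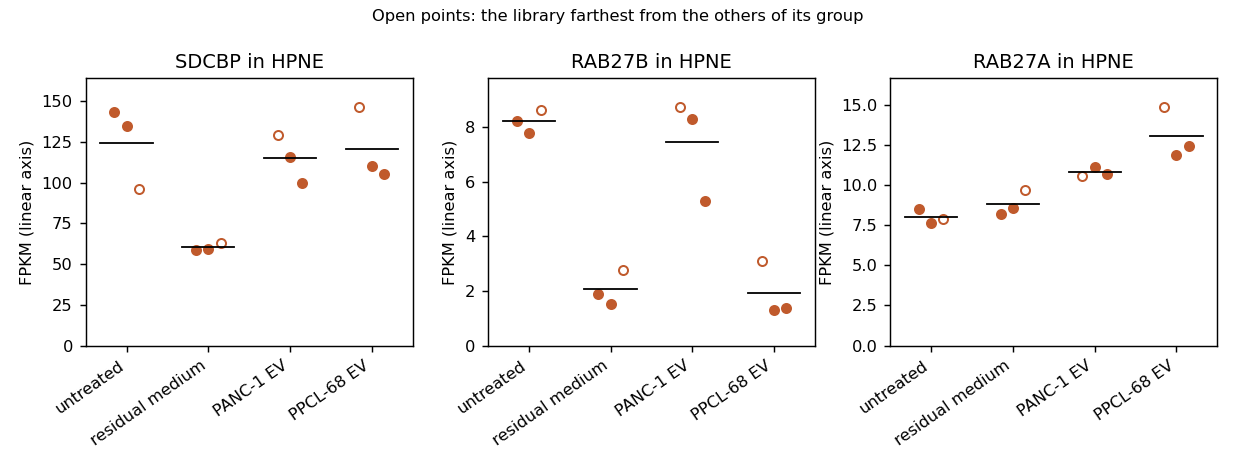
FPKM of SDCBP, RAB27B and RAB27A in the 12 HPNE libraries on linear axes from 0, with bars for group means and open points for the library of each group that lay apart. SDCBP is lowest in residual medium, RAB27B is low in residual medium and PPCL-68 EV, and RAB27A is highest in the vesicle groups.

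PDCD6IP, which encodes the ESCRT partner ALIX, ranged over 28.4 to 33.5 FPKM in HPNE and 14.6 to 17.4 FPKM in HPDE. In HPNE it was at 33.4, 33.5 and 30.9 FPKM in residual medium and 28.4, 28.5 and 28.7 FPKM with PPCL-68 EVs, where it fell by 0.18 (SE 0.07, adjusted p = 0.0422, limma). That call was lost with a replicate block (0.0554), voom (0.0537) and only the 6 libraries compared (0.114). It was kept with a pseudocount of 0.1 (0.0422), no filter (0.0329) and size factors (0.0139). The adjusted p was up to 0.133 when 1 library was left out, which lost it for 9 of the 12 libraries. The exceptions were untreated replicate 3, PANC-1 EV replicate 1 and residual medium replicate 3. Without the 4 libraries that lay apart the fall was 0.22 (log2 difference -0.22, adjusted p = 0.00210). PANC-1 EVs then gave -0.13 against residual medium (adjusted p = 0.0336, against -0.06 and 0.500 with all libraries). Residual medium gave 0.19 over untreated cells without the 4 (adjusted p = 0.00394), 0.26 with size factors (adjusted p = 0.00636) and 0.14 with all libraries (adjusted p = 0.102). In HPDE, PDCD6IP was at 17.4, 16.3 and 17.2 FPKM with PANC-1 EVs, above every library of the other 3 groups. It rose there by 0.12 over untreated cells (adjusted p = 0.0258), a call lost without untreated replicate 2 or 3 or PANC-1 EV replicate 1 or 3 (adjusted p of up to 0.0875), and by 0.17 over PPCL-68 EVs (adjusted p = 0.00676). Over residual medium the difference was 0.11 (adjusted p = 0.0513), which passed with size factors (0.14, adjusted p = 0.0116), no filter (0.0464) and voom (0.0467).

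TSG101, the ESCRT-I subunit that binds ubiquitylated cargo, ranged over 24.0 to 30.8 FPKM in HPNE and 23.6 to 31.1 FPKM in HPDE. In HPNE it was at 24.0, 24.9 and 26.4 FPKM untreated and at 29.9, 30.8 and 27.1 FPKM in residual medium, a rise of 0.21 (SE 0.07, adjusted p = 0.0334, limma). The call was lost without untreated replicate 1 or 2 or residual medium replicate 1 or 2 (adjusted p of up to 0.128), and with only the 6 libraries compared (0.0827). Without the 4 libraries that lay apart the rise was 0.30. The vesicle groups did not pass the test against residual medium in HPNE (-0.06 and -0.17, adjusted p = 0.569 and 0.0791). PPCL-68 EVs did pass without the 4 libraries (-0.22, adjusted p = 0.00392) and with size factors (-0.21, adjusted p = 0.0252). Against untreated cells PANC-1 EVs gave 0.15 (adjusted p = 0.144), 0.18 without the 4 libraries (adjusted p = 0.0125) and 0.22 with size factors (adjusted p = 0.0382). In HPDE, TSG101 was at 30.2, 31.1 and 27.9 FPKM with PANC-1 EVs, 26.8, 23.6 and 25.1 FPKM untreated and 25.7, 25.5 and 25.0 FPKM with PPCL-68 EVs. It rose with PANC-1 EVs by 0.23 over untreated cells (adjusted p = 0.00229) and by 0.22 over PPCL-68 EVs (adjusted p = 0.00482). Against residual medium the difference was 0.13 (adjusted p = 0.0579), and 0.16 (adjusted p = 0.0237) with size factors.

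Among the tetraspanins, CD63, which sits on late endosomes and lysosomes, separated the 2 kinds of vesicle in HPDE. It was at 184, 171 and 184 FPKM untreated, 214, 194 and 204 FPKM in residual medium, 164, 168 and 174 FPKM with PANC-1 EVs and 252, 293 and 254 FPKM with PPCL-68 EVs. The PPCL-68 EV libraries were the 3 highest, clear of every other group. CD63 rose with PPCL-68 EVs by 0.38 over residual medium (SE 0.06, adjusted p = 5.60e-05, limma) and by 0.56 over untreated cells (adjusted p = 1.05e-06). With PANC-1 EVs it fell by 0.275 against residual medium (adjusted p = 0.00106) and differed by -0.09 from untreated cells (adjusted p = 0.206). The direct comparison gave -0.65 for PANC-1 against PPCL-68 EVs (adjusted p = 8.50e-07). CD63 was 1 of 7 members called between the vesicles in HPDE, 3 higher and 4 lower with PANC-1 EVs, beside 50.1% of all genes. The rise of 0.19 in residual medium (adjusted p = 0.0417) was lost with a replicate block (0.0729), no filter (0.138) and without any 1 untreated library or residual medium replicate 1 or 3 (up to 0.150).

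In HPNE, CD63 was called in none of the 6 comparisons. Its values were 560.4, 552 and 544 FPKM untreated, 559, 553 and 502 FPKM in residual medium, 448, 583 and 555 FPKM with PANC-1 EVs and 561, 639 and 608 FPKM with PPCL-68 EVs. The low values in residual medium and PANC-1 EV were the libraries that lay apart. Without those 4, CD63 was 0.17 higher with PPCL-68 EVs than with residual medium (adjusted p = 0.0137) and 0.16 higher than in untreated cells (adjusted p = 0.0132). Of its variance in HPNE, 36.8% lay between groups, the lowest share among the members, beside a median of 68.2% over all genes.

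CD9, a tetraspanin of the plasma membrane, fell with both vesicles in HPDE. It was at 119, 120.1 and 118 FPKM untreated, 125, 113 and 113 FPKM in residual medium, 90.8, 100.5 and 97.1 FPKM with PANC-1 EVs and 101, 103 and 106 FPKM with PPCL-68 EVs. All 6 vesicle libraries lay below all 6 libraries without vesicles. The fall against residual medium was 0.28 with PANC-1 EVs (SE 0.05, adjusted p = 0.000170, limma) and 0.17 with PPCL-68 EVs (log2 difference -0.17, adjusted p = 0.00570). Against untreated cells the log2 differences were -0.31 and -0.20 (adjusted p = 7.86e-05 and 0.00215). The summed duct epithelium markers were also lower in these libraries, at 1549 to 1811 FPKM with PANC-1 EVs and 1431 to 1444 FPKM with PPCL-68 EVs, against 2763 to 3498 FPKM without vesicles. Their part in the fall of CD9 was not tested, and EPCAM, one of those markers, was at 165 to 192 FPKM with vesicles and 148 to 188 FPKM without.

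In HPNE, where CD9 was scarce, it was at 2.04, 2.18 and 1.77 FPKM untreated, 1.08, 1.46 and 1.27 FPKM in residual medium, 1.51, 0.94 and 1.18 FPKM with PANC-1 EVs and 0.95, 0.93 and 1.41 FPKM with PPCL-68 EVs. The untreated libraries were the 3 highest. CD9 fell by 0.40 in residual medium (adjusted p = 0.0287, limma), by 0.44 with PANC-1 EVs (adjusted p = 0.0344) and by 0.52 with PPCL-68 EVs (adjusted p = 0.00804), all against untreated cells. The first call was lost without untreated replicate 1 or 2 or residual medium replicate 1 (up to 0.107), and with no filter on low genes (0.0752) or size factors (0.0671). The second was lost without untreated replicate 1 or 2 or PANC-1 EV replicate 2 or 3 (up to 0.134), with a replicate block (0.0545), no filter (0.0920) and size factors (0.0529). Against residual medium the vesicle groups did not pass the test (-0.04 and -0.12, adjusted p = 0.840 and 0.491).

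CD81, a partner of CD9 in the plasma membrane, was high in untreated HPNE and lower in the other 3 groups. It was at 124, 120.1 and 90.7 FPKM untreated, 64.0, 59.6 and 77.7 FPKM in residual medium, 84.5, 71.2 and 61.7 FPKM with PANC-1 EVs and 75.8, 50.8 and 50.3 FPKM with PPCL-68 EVs. No treated library reached the lowest untreated one. CD81 fell against untreated cells by 0.72 in residual medium (SE 0.19, adjusted p = 0.0105, limma), by 0.62 with PANC-1 EVs (adjusted p = 0.0372) and by 0.92 with PPCL-68 EVs (adjusted p = 0.00244). The PANC-1 EV call was lost without untreated replicate 1 or 2, PANC-1 EV replicate 2 or 3 or residual medium replicate 1 (up to 0.150) and with no filter (0.0923). COL1A1, a mesenchymal marker, moved alongside, at 3731 to 4337 FPKM untreated and 1411 to 3498 FPKM in the 9 treated libraries. The summed mesenchymal markers, TERT included, did overlap: 12046 to 12645 FPKM untreated, 9537 to 12534 FPKM in residual medium and 10480 to 12424 FPKM with PANC-1 EVs. With PPCL-68 EVs they summed to 8627 to 10549 FPKM. The part of these markers was not tested. Against residual medium CD81 differed by 0.11 with PANC-1 EVs and -0.20 with PPCL-68 EVs (adjusted p = 0.692 and 0.418). Without the 4 libraries that lay apart the second was -0.28 (adjusted p = 0.00389), and CD81 was then 0.38 higher with PANC-1 than with PPCL-68 EVs (adjusted p = 0.00183).

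In HPDE, CD81 stayed between 28.2 and 35.9 FPKM. It was at 28.2, 31.9 and 30.5 FPKM with PANC-1 EVs and at 35.8, 35.9 and 34.5 FPKM in residual medium, a fall of 0.22 (SE 0.05, adjusted p = 0.000828, limma). Against untreated cells PANC-1 EVs gave -0.16 (adjusted p = 0.00828, and 0.0693 with size factors). Against PPCL-68 EVs they gave -0.13 (adjusted p = 0.0339). That last call was lost with a replicate block (0.0563), no filter (0.0602), size factors (0.0574) or only the 6 libraries compared (0.0723), and without PANC-1 EV replicate 1 or 3 or PPCL-68 EV replicate 1 or 2 (up to 0.164).

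CD82, a tetraspanin known as a suppressor of metastasis, ran opposite to CD81 in HPNE. It was at 25.3, 29.7 and 46.6 FPKM untreated, 64.7, 67.9 and 62.0 FPKM in residual medium, 42.6, 66.9 and 61.5 FPKM with PANC-1 EVs and 73.4, 44.6 and 44.3 FPKM with PPCL-68 EVs. The library that lay apart was the outlying value in the untreated and both vesicle groups. CD82 rose in residual medium by 0.96 (SE 0.25, adjusted p = 0.0104, limma). With PPCL-68 EVs it rose by 0.67 over untreated cells (adjusted p = 0.0483), a call lost in 10 of the 12 fits that left out 1 library (up to 0.180), the exceptions being untreated replicate 3 and PANC-1 EV replicate 1. A replicate block (0.0731), no filter (0.117) and only the 6 libraries compared (0.0840) also lost it. With PANC-1 EVs the difference from untreated cells was 0.76 (adjusted p = 0.0503), and it passed with voom (0.0495) and size factors (0.82, adjusted p = 0.0326). Without the 4 libraries that lay apart CD82 was 1.24 above untreated in residual medium, 1.20 above with PANC-1 EVs and 0.68 above with PPCL-68 EVs, and PPCL-68 EVs were 0.56 below residual medium (log2 difference -0.56, adjusted p = 7.97e-05). It was then 0.52 higher with PANC-1 than with PPCL-68 EVs (adjusted p = 0.000585, against 0.09 and 0.871 with all libraries).

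In HPDE, CD82 was at 48.4, 48.4 and 46.6 FPKM untreated, 63.7, 53.3 and 54.3 FPKM in residual medium, 49.8, 50.5 and 55.6 FPKM with PANC-1 EVs and 36.5, 40.2 and 38.0 FPKM with PPCL-68 EVs. The PPCL-68 EV libraries were the 3 lowest. CD82 fell there by 0.56 against residual medium (SE 0.06, adjusted p = 2.31e-06, limma) and by 0.32 against untreated cells (adjusted p = 0.000543). It was 0.43 higher with PANC-1 than with PPCL-68 EVs (adjusted p = 7.45e-05). With PANC-1 EVs it differed from residual medium by -0.13 (adjusted p = 0.0906) and from untreated cells by 0.12 (adjusted p = 0.127), or 0.16 with size factors (adjusted p = 0.0451). The rise of 0.25 in residual medium (adjusted p = 0.0158) was lost without untreated replicate 3 or residual medium replicate 1 (up to 0.0605) and with no filter (0.0681).

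Whether the lines differed in their response was tested as an interaction over all 24 libraries. For PANC-1 EVs against residual medium, 3 of 9 members differed between lines, beside 21.2% of all 12377 genes (12.5% in that direction): RAB27B, SDCBP and RAB27A, each higher in HPNE than in HPDE relative to residual medium. For PPCL-68 EVs, 2 of 9 differed, beside 25.7% (13.6% in that direction): RAB27A and SDCBP, again in that direction. RAB27A thus gave the same interaction with both vesicles, -0.66 and -0.66 (HPDE effect minus HPNE effect, SE 0.11). SDCBP gave -0.89 and -0.61 (SE 0.17). RAB27B gave -1.64 with PANC-1 EVs and -0.30 with PPCL-68 EVs (SE 0.26), the second not called (adjusted p = 0.421). CD63, which was called in HPDE and not in HPNE, did not pass the test of the difference, at -0.24 for PANC-1 EVs and 0.21 for PPCL-68 EVs (SE 0.12, adjusted p = 0.172 and 0.220). Without the 4 HPNE libraries that lay apart, 7 of 9 members differed between lines with PANC-1 EVs, beside 47.0% of all genes. The additions were CD63 (-0.31, adjusted p = 0.00711), CD81 (-0.33, adjusted p = 0.00318), TSG101 (0.25, adjusted p = 0.0178) and PDCD6IP (0.24, adjusted p = 0.00389). PDCD6IP was then added with PPCL-68 EVs as well (0.16, adjusted p = 0.0409), beside 45.9% of all genes. Size factors added TSG101 (0.24, adjusted p = 0.0420) and PDCD6IP (0.22, adjusted p = 0.0174) with PANC-1 EVs, and moved the share of all called genes with a higher HPDE effect from 40.8% to 52.5%. The vesicle effects share the residual medium libraries, which differed between the lines themselves. In an interaction of residual medium with line, chosen after seeing the data, 5 of 9 members differed, beside 38.1% of all genes: SDCBP by 1.22, RAB27B by 1.30, CD81 by 0.78, CD82 by -0.72 and CD9 by 0.37. TSG101 (-0.19, adjusted p = 0.0437) and PDCD6IP (-0.17, adjusted p = 0.0196) were called as well without the 4 libraries, beside 62.5% of all genes. CD9 lost its call with no filter (0.0635) and size factors (0.0541), and CD82 with no filter (0.105) and a replicate block (0.0549). Size factors added PDCD6IP (-0.20, adjusted p = 0.0188).

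**Figure D4:**
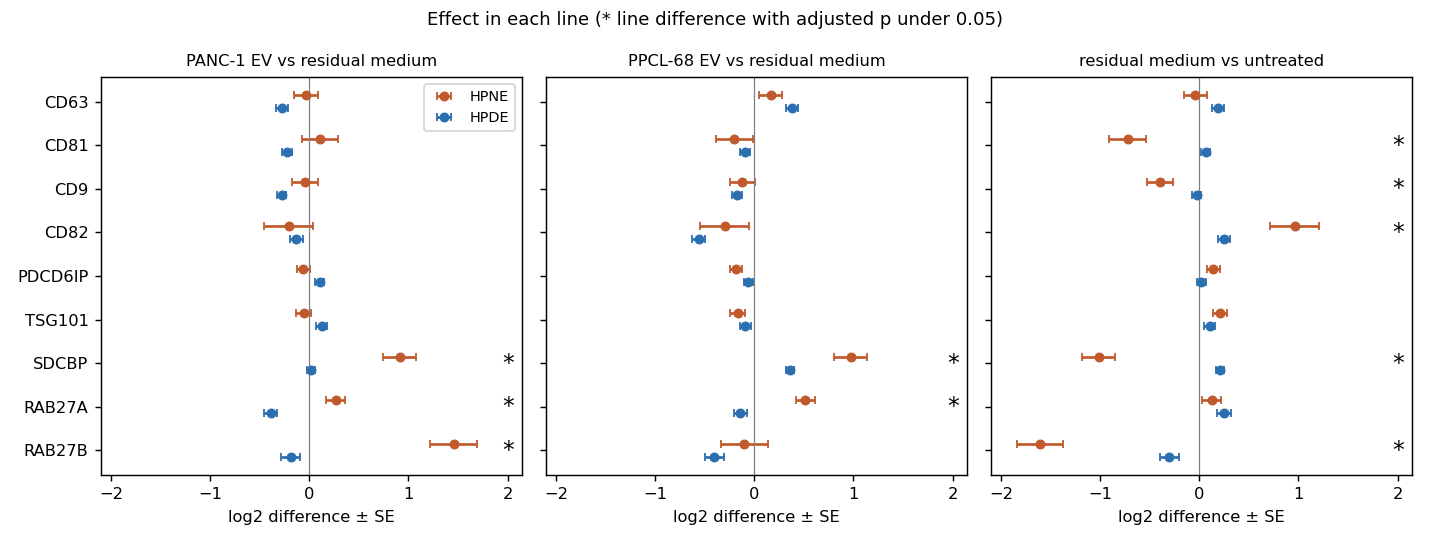
Log2 difference of each tested member in HPNE (orange) and HPDE (blue) for the 2 vesicles against residual medium and for residual medium against untreated; bars are standard errors. Asterisks mark members whose effect differed between lines at an adjusted p under 0.05: 3, 2 and 5 in the 3 panels.

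The rest of the vesicle pathway was followed through 109 further genes in 6 lists, with 80 passing the filter in HPNE and 87 in HPDE. Against residual medium, PANC-1 EVs raised 7 and lowered 4 of the 80 in HPNE, and raised 20 and lowered 36 of the 87 in HPDE. PPCL-68 EVs raised 18 and lowered 15 in HPNE, and raised 27 and lowered 33 in HPDE. As shares these were 13.8%, 64.4%, 41.2% and 69.0%, near or below the shares of all genes given above (24.2% and 63.3% for PANC-1 EVs in HPNE and HPDE, 39.9% and 67.7% for PPCL-68 EVs). Without the 4 HPNE libraries that lay apart, the HPNE shares were 53.8% and 71.2%, beside 58.9% and 65.5% of all genes. With size factors the HPNE direction with PANC-1 EVs turned, to 3 higher and 8 lower of 80.

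Of 29 ESCRT genes, 26 were tested. In HPNE, PANC-1 EVs raised 4 and lowered 1, 19.2% beside 24.2% of all genes, and PPCL-68 EVs raised 10 and lowered 4, 53.8% beside 39.9%. In HPDE the vesicles raised 8 and 11 and lowered 11 and 7 in turn, 73.1% and 69.2% beside 63.3% and 67.7%. With size factors the HPNE count with PANC-1 EVs was 2 each way, and the HPDE count with PANC-1 EVs was 9 higher and 7 lower. CHMP1A, an ESCRT-III subunit, was named in all 4 comparisons and fell in each. With PANC-1 EVs it fell by 0.38 in HPNE and by 0.65 in HPDE, and with PPCL-68 EVs by 0.69 and 0.47. UBAP1, which like TSG101 is an ESCRT-I subunit, rose by 0.45 and 0.68 in HPNE, and by 0.47 with PANC-1 EVs in HPDE. CHMP1B, the paralogue of CHMP1A, rose by 0.64 and 1.03 in HPNE, and by 0.67 with PPCL-68 EVs in HPDE.

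The syndecan and ceramide genes work beside SDCBP. In HPNE, 0 of 9 were called with PANC-1 EVs, beside 24.2% of all genes, and 5 of 9 with PPCL-68 EVs, 2 higher and 3 lower, beside 39.9%. The counts without the 4 libraries that lay apart were 3 and 8 of 9, beside 58.9% and 65.5% of all genes. With all libraries, the cell-surface proteoglycans SDC1 and SDC2 fell with PPCL-68 EVs in HPNE by 1.01 and 0.87. SDC1 went from 3.47 to 1.16 FPKM and SDC2 from 9.66 to 4.86 FPKM. SDCBP rose in that comparison, and a link was not tested. PANC-1 EVs raised 1 and lowered 3 of the 8 tested in HPDE, and PPCL-68 EVs raised 2 and lowered 3, shares of 50% and 62.5% beside 63.3% and 67.7%. SDC4 rose with PANC-1 EVs by 0.48, from 417 to 584 FPKM.

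Transport and release genes, which act with the RAB27 pair, gave 3 of 18 called with PANC-1 EVs (1 higher, 2 lower) and 7 of 18 with PPCL-68 EVs (4 higher, 3 lower) in HPNE, beside 24.2% and 39.9% of all genes. The counts became 10 and 12 of 18 without the 4 libraries that lay apart, beside 58.9% and 65.5%. Of 19 tested in HPDE, PANC-1 EVs raised 6 and lowered 7, and PPCL-68 EVs raised 7 and lowered 3, shares of 68.4% and 52.6% beside 63.3% and 67.7%. RALA, a GTPase of exocytosis, rose in HPNE by 0.54 and 0.80. SYTL2, a RAB27 effector, fell by 1.07 with PPCL-68 EVs in HPNE, from 2.08 to 0.46 FPKM. RAB5A, the early endosome GTPase, and UNC13D, another RAB27 effector, rose in HPDE with both vesicles, by 0.56 and 0.62 with PANC-1 EVs and by 0.56 and 0.47 with PPCL-68 EVs.

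Other tetraspanins went down in HPDE: of 15 tested, 9 fell and 0 rose with PANC-1 EVs, and 8 fell and 2 rose with PPCL-68 EVs, beside 35.1% and 36.4% of all genes that fell. With size factors 1 rose with PANC-1 EVs and 3 with PPCL-68 EVs, and the numbers that fell were 9 and 8. The summed duct epithelium markers were also lower, at 1431 to 1811 FPKM in the vesicle libraries against 2763 to 3498 FPKM in the others. EPCAM, one of those markers, overlapped between vesicle and other libraries, as given for CD9. The summed mesenchymal markers were at 132 to 153 FPKM with PPCL-68 EVs and 95.3 to 107 FPKM with PANC-1 EVs, against 80.9 to 123 FPKM without vesicles. Their part in these falls was not tested. TSPAN6 and TSPAN17 fell with PANC-1 EVs by 0.48 and 0.42. The median log2 difference of the 15 other tetraspanins was -0.25 with PANC-1 EVs and -0.20 with PPCL-68 EVs, beside -0.04 and -0.03 for all genes. In HPNE, 0 of 12 were called with PANC-1 EVs and 2 of 12 with PPCL-68 EVs, where TSPAN31 rose by 0.33 and TSPAN5 fell by 0.48, beside 24.2% and 39.9% of all genes. When the 4 libraries that lay apart were left out the counts were 3 and 8 of 12, beside 58.9% and 65.5%.

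Tetraspanin partners are proteins bound by tetraspanins such as CD9, CD81 and CD82: here integrins, immunoglobulin proteins, ADAM10, CLDN7 and EPCAM. PANC-1 EVs raised 3 and lowered 3 of the 10 in HPDE, and PPCL-68 EVs raised 3 and lowered 5, shares of 60% and 80% beside 63.3% and 67.7% of all genes. ITGB4 and ITGA2 rose with PANC-1 EVs by 0.55 and 0.55, while IGSF8 and PTGFRN, the direct partners of CD9 and CD81, fell by 0.50 and 0.39. In HPNE, 1 of 6 was called with each vesicle: ITGA3 rose by 0.33 with PANC-1 EVs and ITGA6 fell by 1.04 with PPCL-68 EVs, beside 24.2% and 39.9% of all genes. With PANC-1 EVs the count was 0 with no filter, size factors, voom or only the 6 libraries compared. The shares of all genes called in those settings were 6.497%, 27.7%, 25.4% and 12.5% in that order. The HPNE counts were 4 and 3 of 6 when the 4 libraries that lay apart were left out, beside 58.9% and 65.5%.

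There were 9 other vesicle cargo genes. PANC-1 EVs raised 1 and lowered 1 in HPNE, where PPCL-68 EVs raised 1 and lowered 3, shares of 22.2% and 44.4% beside 24.2% and 39.9% of all genes. All 9 were called with each vesicle without the 4 libraries that lay apart, beside 58.9% and 65.5%. In HPDE, PANC-1 EVs raised 2 and lowered 3, 55.6% beside 63.3%, and PPCL-68 EVs raised 2 and lowered 7, all 9 called beside 67.7%. ANXA6, a membrane-binding annexin, fell in all 4 comparisons. Its HPNE mean was 182 FPKM in residual medium, 107 FPKM with PANC-1 EVs and 67.5 FPKM with PPCL-68 EVs. It fell by 0.74 with PANC-1 EVs there and by 0.85 in HPDE. FLOT1, a lipid raft protein, rose in HPNE by 0.36 and 0.57, and CAV1 fell there with PPCL-68 EVs by 1.08.

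**Figure D5:**
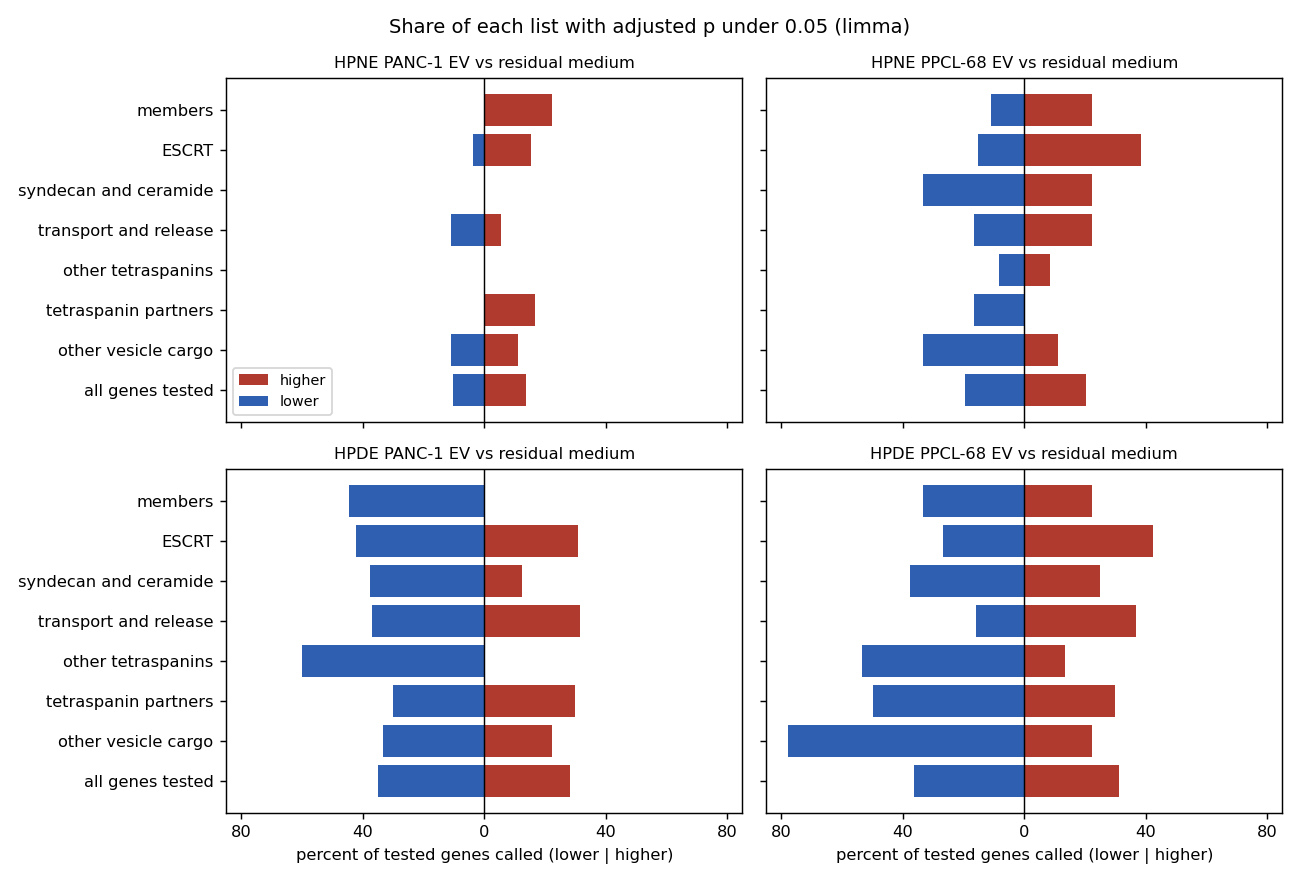
Percent of the tested genes of each list that were called higher (red, to the right) or lower (blue, to the left) in the 4 comparisons with residual medium, with all genes tested as the last bar. The members and the 6 lists are small, so single genes move a bar by several percent; the other tetraspanins in HPDE with PANC-1 EVs have 9 lower of 15 and none higher.

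The genes whose log2 levels followed a member most closely were ranked by Pearson's r over the 12 libraries of a line, which share their groups and depth; these are descriptions. In HPNE, RAB27B was followed by CCDC68 (r = 0.989) and CDKN2B (0.980), SDCBP by ZNF12 (0.982) and VPS8 (0.981), RAB27A by NFE2L1 (0.975) and KLHL5 (0.966), and CD81 by HSD17B11 (0.988) and TUB (0.987). In HPDE, CD63 was followed by NAIF1 (0.985) and SSR4 (0.981), SDCBP by PSAP (0.980) and FUT3 (0.979), RAB27B by GLUL (0.977) and PDS5B (0.971), and CD9 by PANK4 (0.978) and MBOAT7 (0.975). The weakest leading match was TSG101 in HPDE, with DNAH14 at 0.888. No gene was among the 2 closest to the same member in both lines.

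On hg19, the build in the submitters' processing notes, the deposited tables place CD63 at chr12:56119107-56123491 (minus), CD9 at chr12:6308881-6347425 (plus), TSPAN8 at chr12:71518865-71835678 (minus), CD81 at chr11:2397407-2418649 (plus), CD82 at chr11:44585977-44641913 (plus), TSG101 at chr11:18489883-18548779 (minus), PDCD6IP at chr3:33839844-33911194 (plus), RAB27A at chr15:55495164-55611311 (minus) and RAB27B at chr18:52385091-52562747 (plus). One value was deposited per gene, so isoforms were not resolved. Apart from RAB27A, shared positions matter little: the antisense RP11-644F5.11 at CD63 had up to 147 reads against at least 6831 for CD63, and the 3 SDCBP pseudogenes had at most 1 read.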

How the data were processed

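RNA-seq of 24 libraries from 2 pancreas cell lines was analysed. The authors deposited 1 table per library with an FPKM value for each of 48162 genes, per the file headers. The submitters' processing notes name CASAVA, STAR, HTSeq, DESeq2 and the build hg19, with no roles or versions. Every value was a whole multiple of 1 read's worth (100% within 0.01 reads), so reads per gene were recovered; between 29209142 and 46490312 were assigned per library. Reads carry no molecular identifiers, and the kit kept no strand.

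The sample titles gave each library its group and replicate number. limma 3.58.1 (R 4.3.3; lmFit, eBayes with trend) was fitted to log2(FPKM + 1) of the 12 libraries of a line, keeping genes whose mean over them was at least 1 FPKM, and to all 24 libraries for differences between lines. Two-sided p-values were adjusted by Benjamini-Hochberg over all genes tested; called means an adjusted p under 0.05. An exact permutation test of 3 against 3 cannot go below 0.1 and was not used. Adding 1 to FPKM makes the log2 difference of a low gene too small. The fit was tested on simulated data with reads drawn independently for each gene. That test does not cover libraries that lie apart, as in HPNE.

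The members and lists were chosen with earlier results of these data known. All members are named; of each list, at most 2 rises and 2 falls per vesicle comparison with residual medium, the largest among genes called and not overlapping between groups, were eligible to be named; and the 2 genes closest to each member by Pearson's r. Same-numbered libraries went together only for PANC-1 EV and PPCL-68 EV in HPNE, where their deviations correlated at 0.57, 0.29 and 0.50. The labels state no such relation. In both groups replicate 1 was the library that lay apart, and deviations within a group are not independent. Whether the numbers pair the samples was therefore not settled. Blocking left the 1 member call there in place. Alternatives were a pseudocount of 0.1, no filter, median-of-ratios size factors, only the 6 libraries compared, a replicate block, voom on recovered reads, leaving out each library, and leaving out the 4 HPNE libraries that lay apart. IST1 had 2 gene models, of which the longer was used; PECAM1 was not analysed here.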

Additional observations from a re-analysis of the deposited data

Results flagged for a closer look

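In 10 cases a member's response differed between the lines by the interaction test (limma, adjusted p under 0.05). Each value is the HPDE log2 difference minus the HPNE log2 difference. With PANC-1 EVs against residual medium the values were -1.645 for RAB27B (adjusted p = 0.000182), -0.6569 for RAB27A (adjusted p = 0.000387) and -0.8914 for SDCBP (adjusted p = 0.00115). With PPCL-68 EVs against residual medium they were -0.6557 for RAB27A (adjusted p = 0.000251) and -0.6116 for SDCBP (adjusted p = 0.0137). These 5 were called in every fit that left out 1 library.

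In residual medium against untreated cells, an interaction chosen after seeing the data, the values were 1.223 for SDCBP (adjusted p = 4.25e-05), 1.302 for RAB27B (adjusted p = 0.000955), 0.7845 for CD81 (adjusted p = 0.00525), -0.7159 for CD82 (adjusted p = 0.0432) and 0.3736 for CD9 (adjusted p = 0.0309). CD82 lost its call in 14 of the 24 fits that left out 1 library (adjusted p up to 0.135) and with a replicate block (0.0549); CD9 lost its call in 6 of them (up to 0.088). SDCBP, RAB27B and CD81 kept theirs in all 24.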

How the results depend on the processing

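Over 144 member comparisons and all settings, 2904 of 3078 results were unchanged, meaning called in the same direction or not called in both fits. Of 70 member calls, 54 held in every fit that left out 1 library and 16 were lost in at least 1; none changed sign there. In 1 changed result the direction turned too: TSG101 between the untreated lines went from 0.00 to -0.35 with size factors. Values not called in either fit could also change sign. SDCBP for PPCL-68 EVs against untreated HPNE, for example, went from -0.04 to 0.04 with size factors. The number of members called moved in these settings. Without the 4 HPNE libraries that lay apart it went from 2 to 4 for PANC-1 EVs and from 3 to 7 for PPCL-68 EVs against residual medium, from 3 to 6 for PANC-1 EVs against untreated cells, from 1 to 3 between the vesicles, all in HPNE, and from 3 to 7 for the line difference with PANC-1 EVs. The share of all genes called rose in the same setting, from 24.2% to 58.9%, from 39.9% to 65.5%, from 21.1% to 62.7%, from 5.47% to 36.4% and from 21.2% to 47.0% in that order. Picking those libraries by distance in the same data favours such rises. With no filter the number of members called went from 3 to 1 for HPNE PANC-1 EVs against untreated cells and from 5 to 1 for HPDE residual medium. For the line difference in residual medium it went from 5 to 3. The share of all genes called fell with no filter too, from 21.1% to 6.67%, from 20% to 5.06% and from 38.1% to 14.0% in that order. With size factors the number of members called went from 3 to 5 for the line difference with PANC-1 EVs, beside 21.9% of all genes. When each library was left out in turn, the counts ranged from 0 to 4 for HPNE PANC-1 EVs against untreated cells, from 2 to 5 for HPDE residual medium, from 3 to 5 for the line difference with PANC-1 EVs and from 3 to 5 for that in residual medium. With the replicate block 138 of 144 member results were unchanged and 6 calls were lost. Same-numbered libraries went together in 1 pair of groups only. Size factors moved the median of all genes by 0.11 for HPNE residual medium against untreated. The lowest depth was that of CD9 in HPNE, with 43 reads in 1 library, and TSPAN8 was below the limit of detection.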
